A study of Rattus norvegicus with 24 samples.

Results

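Of the 37 rat chromosome 13 genes with a value on these arrays, 7 are described here: Ctse, Tor1aip1, Mtarc2, Ralb, Tnnt2, Apcs and Cd48. They were selected on the difference between strain 13 and strain SS on HS, in which 6 of them passed the threshold; Cd48 did not pass it, and it was taken by its platform symbol. Each gene is represented by 1 cDNA probe (probes 1913, 1898, 2043, 2321, 2030, 2342 and 2528 in the order given), of 1561 probes with a value in the series. The values of the genes in that comparison are therefore a description.

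RNA labelled as rat kidney was compared on 24 two-colour cDNA arrays after 2 weeks of diet, while the title of the series speaks of the renal medulla. The groups were strain 13 on HS, strain SS on HS, strain 13 on LS and strain SS on LS. HS and LS are read as high and low salt, and strain 13 is known as the SS (Dahl salt-sensitive) rat that carries chromosome 13 of the Brown Norway (BN) rat, so both strain 13 groups carry that chromosome and all 4 groups share the rest of the SS genome. Strain 13 over SS was measured on HS and on LS, and HS over LS was measured in strain 13 and in SS, each in 3 replicates hybridised on a forward and a dye-swap array. The labels used here give no age and no sex. They also do not say that replicates are different animals, and p-values then measure a spread that may be technical.

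All values are deposited log ratios of unstated base, averaged over the arrays of a replicate and given as mean ± SD; they compare 2 RNAs and give no level of a gene. The direction (13 over SS, HS over LS) is likely and not settled. The RNA of each dye is named in 13 titles, and just 1 of those titles belongs to a diet array. In the titles of the strain arrays, the dyes of strain 13 and SS were exchanged between forward and dye-swap arrays. These titles do not say which RNA is the upper term of the ratio. The 4 comparisons closed on each other with r = 0.65 across 1006 probes as deposited and with -0.23 to 0.29 when groups were turned, and a common turn of every sign cannot be told apart from the signs used here. Arrays held 726 to 1402 values. Titles of 5 SS diet arrays give no strain, and that of the sixth begins as for strain 13 although it names SS in both channels.

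In a chromosome substitution strain, the whole of 1 chromosome comes from a donor strain and the rest of the genome from the recipient. Genes on that chromosome carry donor letters in their own promoters and exons, while regulators encoded elsewhere are those of the recipient. The substitution of chromosome 13 is known for lowering blood pressure and kidney injury of SS rats on high salt, and the state of the kidney then differs between the strains as well.

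The genes have unrelated roles. Ctse encodes cathepsin E, an aspartic protease of endosomes. Tor1aip1 encodes lamina-associated polypeptide 1, an inner nuclear membrane protein that activates torsin ATPases. Mtarc2 encodes a molybdenum enzyme of the mitochondrial outer membrane that reduces N-hydroxylated compounds. Ralb encodes a Ras-family GTPase of the exocyst pathway. Tnnt2 encodes cardiac troponin T, the tropomyosin-binding subunit of the thin filament, Apcs the pentraxin serum amyloid P component, a liver product, and Cd48 a surface receptor of leukocytes.

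Along the chromosome the genes are not neighbours. Among the 37 measured genes, Ralb was the first in order, Ctse the sixth, Tnnt2 number 13, Tor1aip1 number 16, Cd48 number 25, Apcs number 27 and Mtarc2 number 35. The RefSeq promoter windows (build GRCr8, a BN assembly, 250 bases before to 50 after the start) of 3 genes are shown because they stand for the 3 patterns reported below. Ctse was above 0 on both diets with the highest ratio of the 7 genes, Ralb was above 0 on both diets at like values, and Tnnt2 was below 0 on HS alone. The windows are Ctse at chr13:45643965-45644264 (+), Ralb at chr13:33176948-33177247 (-) and Tnnt2 at chr13:49818873-49819172 (+), the first of its start sites in the table.
Ctse: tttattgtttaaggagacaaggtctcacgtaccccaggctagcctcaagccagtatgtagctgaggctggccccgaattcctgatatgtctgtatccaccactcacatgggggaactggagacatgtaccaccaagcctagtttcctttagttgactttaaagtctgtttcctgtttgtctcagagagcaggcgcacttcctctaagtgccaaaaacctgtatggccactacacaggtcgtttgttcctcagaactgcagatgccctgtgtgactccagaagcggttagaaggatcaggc
Ralb: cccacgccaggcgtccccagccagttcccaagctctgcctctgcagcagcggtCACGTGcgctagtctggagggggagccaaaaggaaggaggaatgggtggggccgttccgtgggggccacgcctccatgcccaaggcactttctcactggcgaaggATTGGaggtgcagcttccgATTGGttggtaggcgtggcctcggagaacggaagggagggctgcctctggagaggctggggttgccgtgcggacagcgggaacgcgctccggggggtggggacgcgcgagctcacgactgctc
Tnnt2: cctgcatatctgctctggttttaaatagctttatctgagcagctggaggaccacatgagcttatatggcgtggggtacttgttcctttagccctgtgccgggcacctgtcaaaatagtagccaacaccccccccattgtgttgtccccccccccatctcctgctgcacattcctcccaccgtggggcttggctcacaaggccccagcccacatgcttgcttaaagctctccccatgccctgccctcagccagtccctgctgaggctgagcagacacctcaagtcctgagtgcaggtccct
Capitals mark matches to CACGTG and to CCAAT, which reads ATTGG from the other strand, found 197 bases and 92 and 73 bases before the Ralb start. The search covered both strands. Of 33469 rat promoter windows of this length, TATAAA occurred in 14.2%, CCAAT in 37.5%, GGGCGG in 33.1%, CACGTG in 6.42% and TGANTCA in 7.33%. Apcs also held CCAAT, at 134 and 116 bases before its start, and the other 6 of the 8 windows of the 7 genes held none of the 5 motifs. GC content was 67.3% in Ralb, 62.0% in Tor1aip1 and in Mtarc2, 57.3% in Tnnt2, 49.3% in Ctse, 45.7% in Apcs and 39.3% in Cd48, against a median of 51.7% over all windows. The windows hold BN letters, and the SS letters are not used here.

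The strain comparison on HS asks which transcripts differ between strain 13 and SS under the salt load. Here 5 of the 7 genes were above 0 and 2 below, and 6 passed an adjusted p of 0.05 in limma; over all 1350 probes tested 6.00% passed (49 higher and 32 lower), and nothing is read from the members' share because it chose them. Ctse had 0.935 and 0.90 in replicates 2 and 3 and no value in replicate 1. Its 4 arrays read 0.29 and 1.58 in replicate 2 (forward and dye swap) and 0.84 and 0.96 in replicate 3, so the replicate means lie closer together than the arrays behind them. Mtarc2 had 0.38, 0.535 and 0.24. Tor1aip1 had 0.325, 0.355 and 0.40, and Ralb 0.30, 0.23 and 0.37. All replicates of these 4 genes were above 0.

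Tnnt2 and Apcs had the opposite sign on HS. Tnnt2 had -0.52, -0.44 and -0.485 in the 3 replicates, a mean of -0.48 ± 0.04 with all 6 arrays below 0. Apcs had -0.46 in each of the 2 replicates measured, from a dye-swap array in replicate 2 and a forward array in replicate 3, so neither replicate has both orientations. Cd48 had 0.12, 0.05 and 0.065, smaller in size than any other member. Ralb (0.30 ± 0.07) and Kmo, which encodes kynurenine 3-monooxygenase (-0.74 ± 0.48), stood just inside the threshold among chromosome 13 genes, with Timm17a, a subunit of the inner mitochondrial membrane translocase (0.17 ± 0.08), and Hsd11b1, which regenerates active glucocorticoid (-0.20 ± 0.14), just outside it. When replicate 2 or replicate 3 was left out of all 4 groups, 0 chromosome 13 probes passed on HS, as did 0 of all probes. Without replicate 1, 4 of 30 chromosome 13 probes passed, against 8 of 32 with all. Over all probes these counts were 27 of 1289 and 81 of 1350. After the arrays were scaled to equal spread, 1 chromosome 13 probe and 13 of all probes passed. With the 3 replicates of the comparison fitted alone, 0 chromosome 13 probes and 0 of all probes passed.

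**Figure D1:**
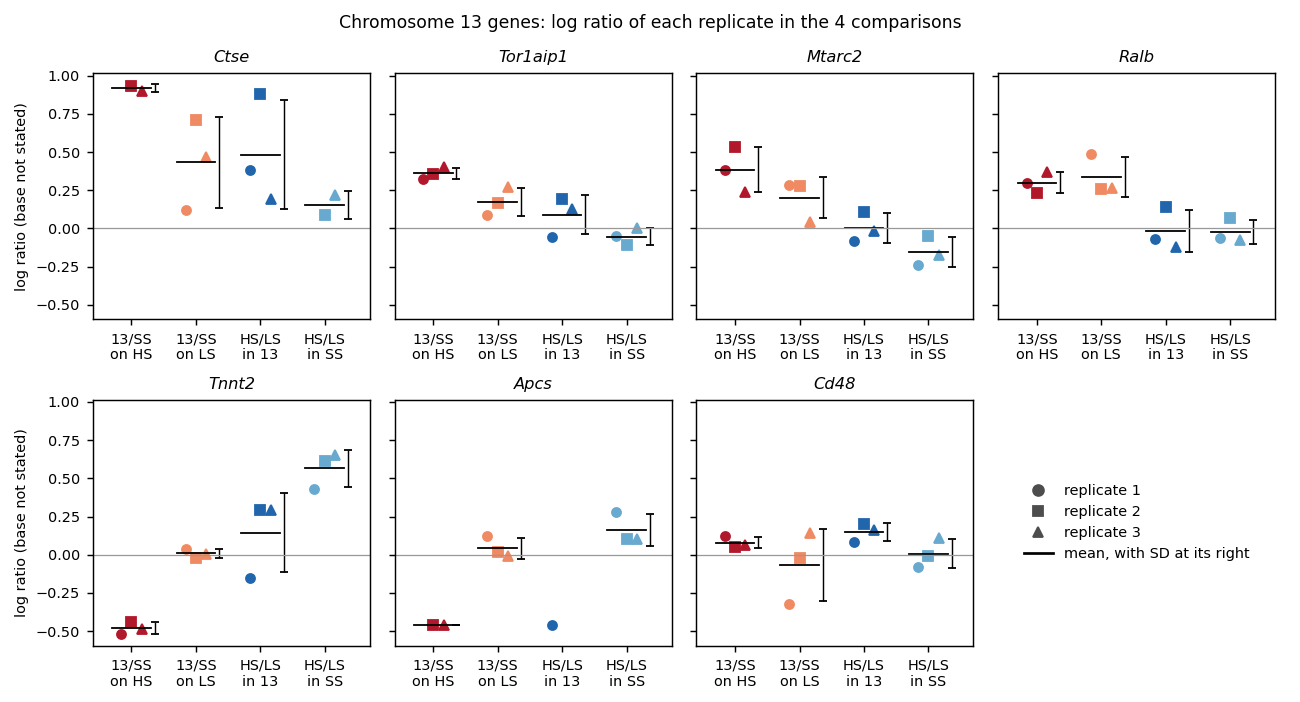
Log ratio of each replicate (vertical axis, base not stated) for the 7 genes in the 4 comparisons (horizontal axis), with symbols for replicates and bars for mean and SD. Ctse, Tor1aip1, Mtarc2 and Ralb lie above 0 in every measured replicate of both strain comparisons, while Tnnt2 lies between -0.52 and -0.44 on HS and between -0.02 and 0.04 on LS.

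The strain comparison on LS holds RNAs of other groups and did not choose the genes, so it was tested. It asks whether the strains differ without the salt load. However, the joint fit gave each gene a single spread over all groups, HS included. The LS p-values and intervals are therefore not fully separate from the choice on HS. With the LS replicates fitted alone, limma adjusted p was 0.1885 for Ctse, 0.3282 for Tor1aip1, 0.3038 for Mtarc2 and 0.164 for Ralb. Each was higher than in the joint fit. Same-numbered replicates of the strain comparisons deviated together in replicate 2 (r = 0.43 across probes) and hardly in replicates 1 and 3 (0.088 and -0.018). Of the 7 genes, 4 were above 0 in all 3 replicates (Ctse, Tor1aip1, Mtarc2 and Ralb) and 0 below in all; over all probes with 3 values 26.5% were above 0 in all replicates. The same 4 genes had an unadjusted p below 0.05 in limma, as did 268 of the 1229 probes tested (21.8%). After adjustment over all probes, 0 of the 7 genes and 0 of all probes (0%) passed. The median of the 7 genes was 0.17, against 0.025 over all probes tested.

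Ralb had the lowest p of the 7 genes in this test. It had 0.49, 0.255 and 0.265, a mean of 0.34 ± 0.13 (n = 3, 95% interval 0.18 to 0.50), the sixth lowest p of all probes, and a limma adjusted p of 0.0904, the lowest value in this comparison, which other probes share. All 5 arrays with a value were above 0. Its call depended on the processing. The limma adjusted p was 0.0472 with arrays scaled to equal spread, 0.0474 over probes with a value in all 12 RNA pairs, 0.0376 on forward arrays alone and 0.0242 with dye orientation as a term. In these settings 23, 35, 70 and 63 of all probes passed. The limma adjusted p was 0.248 on dye-swap arrays alone, 0.129 with the replicate block and 0.164 with the 3 replicates fitted alone. Leaving out a replicate gave limma adjusted p-values of 0.172 to 0.229. The 3 forward arrays on HS and the 2 on LS read 0.40 to 0.47, and the dye-swap arrays read 0.05 to 0.27 on HS and 0.11 to 0.49 on LS.

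Ctse had 0.12, 0.71 and 0.47 on LS, a mean of 0.43 ± 0.30 (limma adjusted p = 0.118, 95% interval 0.13 to 0.74). All 3 values came from dye-swap arrays. In the 3 RNA pairs of the series that had both orientations, the dye-swap array exceeded the forward one by 0.49 ± 0.69. These differences ran from 0.06 to 1.29, the largest in replicate 2 on HS (0.29 forward and 1.58 dye swap). The other pairs read 0.84 and 0.96 in replicate 3 on HS and 0.06 and 0.12 in replicate 2 in SS. With dye orientation as a term the mean was 0.20 (limma adjusted p = 0.520). Replicate 1 was far below the other replicates.

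Tor1aip1 had 0.085, 0.165 and 0.27 on LS, a mean of 0.17 ± 0.09 (limma adjusted p = 0.152, 95% interval 0.03 to 0.32). All 3 replicates were above 0. Its dye-swap array was above the forward array in 11 of 12 RNA pairs (0.38 ± 0.31). Its mean on LS was -0.04 on forward arrays alone, 0.39 on dye-swap arrays alone and 0.35 without the array with the fewest values, a forward array of replicate 1 that read -0.45. On HS its forward arrays averaged 0.17 and its dye-swap arrays 0.55.

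Mtarc2 had 0.285, 0.275 and 0.045 on LS, a mean of 0.20 ± 0.14 (limma adjusted p = 0.156, 95% interval 0.03 to 0.37). Replicate 3 was near 0 and the other replicates were alike. Without the array with the fewest values, which read 0.55, the mean on LS was 0.11. Its dye-swap and forward arrays differed by 0.00 ± 0.31 over the 12 pairs of the series, with opposite signs in different comparisons. The forward and dye-swap means were 0.23 and 0.54 on HS, 0.24 and 0.16 on LS, and -0.06 and -0.25 in SS on diet.

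Tnnt2, Apcs and Cd48 had no passing difference on LS. Tnnt2 had 0.04, -0.02 and 0.005, a mean of 0.01 ± 0.03 (limma adjusted p = 0.961, 95% interval -0.18 to 0.20). Apcs had 0.12, 0.02 and -0.01 (limma adjusted p = 0.743), each from 1 array. Cd48 had -0.325, -0.02 and 0.14 (limma adjusted p = 0.644), a spread wider than on HS. Its low replicate 1 included the array with the fewest values, at -0.54, and its mean was -0.07 with that array and 0.00 without it.

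**Figure D2:**
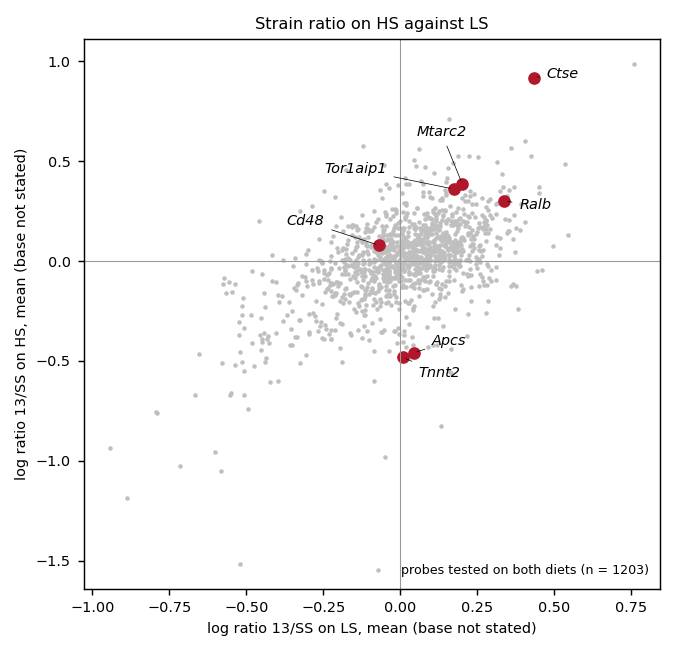
Mean log ratio of strain 13 over SS on HS (vertical axis) against the same on LS (horizontal axis, base not stated) for 1203 probes tested on both diets, with the 7 genes in red. Ctse, Mtarc2, Tor1aip1 and Ralb lie above 0 on both axes, and Tnnt2 and Apcs lie near 0 on LS and between -0.48 and -0.46 on HS.

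The diet comparison in strain 13 asks how the genes respond to salt when the BN chromosome is present. It did not choose the genes. However, strain 13 RNA on HS enters both it and the comparison that did, and the joint fit shares the spread of each gene. Its tests are therefore not fully separate from that choice. Same-numbered deviations of both comparisons correlated at -0.084 to 0.03 across probes. Of the 7 genes 6 were tested. Of these, 0 passed in limma, as did 0 of all 1287 probes (0%), with 1 of the 6 and 119 of all probes at an unadjusted p below 0.05. Ctse and Cd48 were above 0 in all 3 replicates, 2 of 6 genes against 15.7% of all probes with 3 values. The median of the 6 genes was 0.12, against 0.01 over all probes tested.

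Ctse had 0.38, 0.88 and 0.19 in strain 13, a mean of 0.48 ± 0.36 with the 17th lowest p of all probes (limma adjusted p = 0.403, 95% interval 0.18 to 0.79). All 3 replicates were above 0 but spread widely, and each came from 1 array, 2 of them dye swaps. Cd48 had 0.085, 0.20 and 0.165, a mean of 0.15 ± 0.06 (limma adjusted p = 0.617). Its 6 arrays read 0.00 to 0.31. Tnnt2 had -0.155, 0.295 and 0.29 (limma adjusted p = 0.625), with replicate 1 apart from the others in sign on both of its arrays.

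Tor1aip1, Mtarc2 and Ralb had replicates on both sides of 0 in strain 13. Their means were 0.09 ± 0.13, 0.00 ± 0.10 and -0.02 ± 0.14 (limma adjusted p = 0.710, 0.997 and 0.976). For Ralb the 3 forward arrays read 0.15 to 0.24 and the dye-swap arrays -0.39 to 0.09, so all forward arrays were above 0 and 2 of the 3 dye-swap arrays below it. Apcs had 1 value, -0.46 from a forward array, and was not tested.

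The diet comparison in SS contains the SS RNA on HS that also enters the strain comparison on HS, by name in replicate 3. Its values are therefore a description. Same-numbered deviations of these comparisons correlated at -0.665, -0.593 and -0.29 across probes. Over all 1310 probes tested 2.82% passed, 24 higher and 13 lower, and of the 7 genes 1 passed, Tnnt2. Tnnt2 had 0.43, 0.61 and 0.655, a mean of 0.565 ± 0.12, with all 6 arrays between 0.27 and 0.78. Apcs had 0.28, 0.10 and 0.105, also all above 0. Mtarc2 had -0.24, -0.05 and -0.175 and was the only member with all 3 replicates below 0 here. When replicate 2 or replicate 3 was left out of all groups, 0 chromosome 13 probes passed in SS. Without replicate 1, 6 of 29 passed, against 1 of 30 with all. Over all probes, 0 passed in SS without replicate 2 or replicate 3. Without replicate 1, 134 of all 1249 probes passed, against 37 of 1310 with all.

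For Ctse the SS values were 0.09 and 0.22, below 2 of its 3 values in strain 13. Tor1aip1 had -0.05, -0.11 and 0.00 in SS and Ralb -0.06, 0.07 and -0.075. Cd48 had -0.08, -0.01 and 0.11. These 3 genes lay within 0.11 of 0 in every SS replicate. The dye-swap array of Ralb in SS replicate 2 read 0.24, and its other SS arrays read -0.12 to -0.03.

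**Figure D3:**
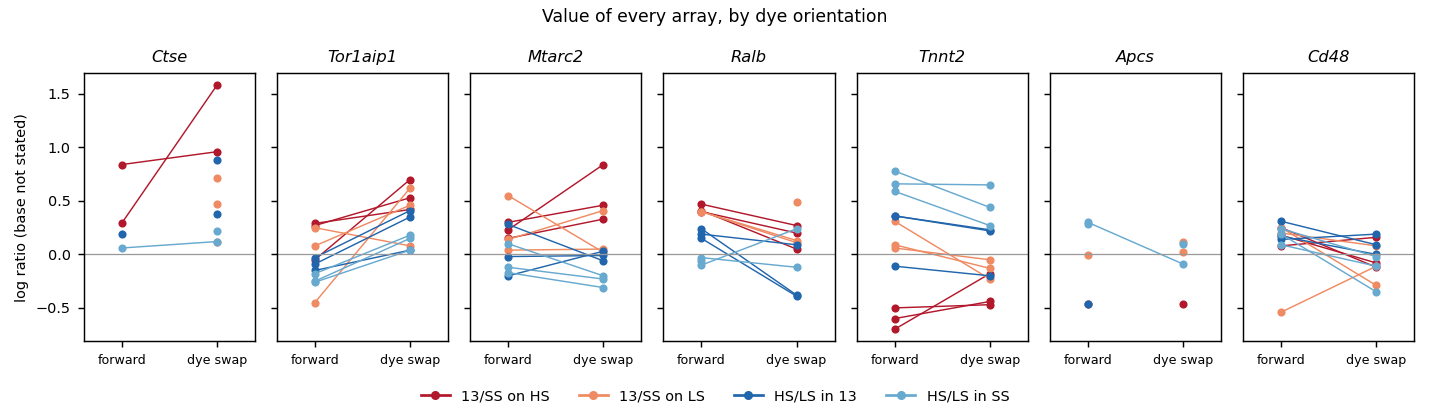
Log ratio of every array (vertical axis, base not stated) by dye orientation (horizontal axis) for the 7 genes, with lines joining the arrays of 1 RNA pair and colours for the comparison. The dye-swap array lies above the forward array in 11 of 12 pairs for Tor1aip1 and below it in 9 of 10 for Ralb, and Tnnt2 on HS lies below 0 on every array.

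The 4 comparisons allow the diet dependence of the strain ratio to be read in 2 ways, from the strain arrays (HS minus LS) and from the diet arrays (strain 13 minus SS). The readings rest on RNAs of the same 4 groups, and both contain the comparison that chose the genes or RNA shared with it. They are therefore given with no test. Per-replicate values subtract same-numbered replicates, although the numbers were not taken to pair samples. Where replicates share RNA, the values of both readings are not independent of each other. Tnnt2 had -0.49 from the strain arrays and -0.42 from the diet arrays. Its per-replicate values were -0.56, -0.42 and -0.49 from the strain arrays and -0.585, -0.315 and -0.365 from the diet arrays, so all 6 lay below 0.

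Mtarc2 had 0.18 and 0.16 by the same readings, with strain array values of 0.095, 0.26 and 0.195 and diet array values of 0.155, 0.16 and 0.16. All 6 lay above 0. Tor1aip1 had 0.19 and 0.14 and Cd48 0.15 and 0.14, each with at least 1 replicate below 0. Ctse had 0.48 and 0.33, but in replicate 3 the diet arrays gave -0.03. Ralb had -0.04 and 0.01, the smallest of the 7 in size by both. Apcs had -0.50 from the strain arrays and -0.62 from the diet arrays, the second from means of which 1 is a single array.

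Title text that may mark a batch is shared by the 4 arrays of replicate 3 of both strain comparisons. Within those arrays, HS minus LS of the strain ratio was 0.43 for Ctse, 0.13 for Tor1aip1, 0.195 for Mtarc2, 0.105 for Ralb, -0.49 for Tnnt2, -0.45 for Apcs and -0.075 for Cd48. Ralb and Cd48 changed sign against their means over replicates, and the other 5 did not.

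Most measured genes of the chromosome did not share the direction of Ctse, Tor1aip1, Mtarc2 and Ralb. On HS 13 of 32 chromosome 13 probes were above 0 and 19 below, with a median of -0.03 against 0.02 over all probes tested. On LS 14 of 29 were above 0 and 15 below, with a median of -0.015. Beside the 6 members, Atp1b1 and Kmo passed on HS. Atp1b1, the beta subunit of the sodium pump, had 0.25 ± 0.07 on HS and 0.11 ± 0.02 on LS (limma adjusted p = 0.295 on LS), and 0.01 in each diet comparison. Kmo had -0.74 ± 0.48 on HS and -0.49 ± 0.20 on LS (limma adjusted p = 0.152 on LS), so both diets had the same sign, and -0.46 ± 0.20 on diet in strain 13 (limma adjusted p = 0.480).

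Leaving out the members, Kmo and Atp1b1, the 3 genes with the largest means in size on LS were Cep170, which encodes a centrosomal protein, at 0.28 ± 0.17, Hsd11b1 at -0.27 ± 0.08 and Cxcr4, a chemokine receptor, at -0.21 ± 0.20 (limma adjusted p = 0.269, 0.116 and 0.411). By the same choice, in strain 13 on diet they were Fmo1, a flavin monooxygenase, at -0.32 ± 0.33, Glul, glutamine synthetase, at -0.28 ± 0.09 and Psen2, a presenilin, at 0.26 ± 0.44 (limma adjusted p = 0.619, 0.518 and 0.625). None of these passed. Some genes next to a member in order had its sign on HS and some did not. Kmo follows Apcs and both were below 0, Dbi, an acyl-CoA-binding protein, follows Ralb and had 0.09 on HS, and Crp, next to Cd48, had 0.13. Csrp1 and Lamc1 flank Tnnt2 among the measured genes and had 0.00 ± 0.19 and -0.07 ± 0.16 on HS, and Hsd11b1, next after Mtarc2, was below 0 on both diets while Mtarc2 was above.

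**Figure D4:**
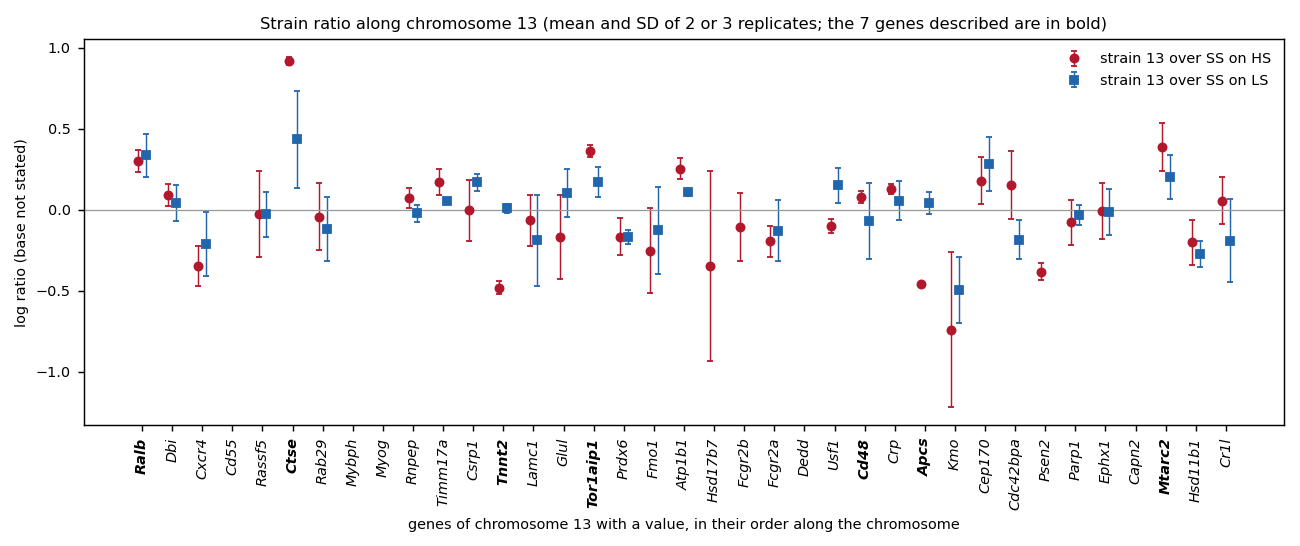
Mean and SD of the log ratio of strain 13 over SS (vertical axis, base not stated) on HS and on LS for the measured genes of chromosome 13 in their order along it (horizontal axis, not to distance), with the 7 genes in bold; genes with under 2 replicates have no point. On HS 13 of 32 probes lie above 0, and Tnnt2 and Apcs, at -0.48 and -0.46, each lie between members above 0.

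Genes of related function were listed for each role. Of the listed cathepsins 6 were measured: on HS 1 was lower, Ctsl (-0.385), a lysosomal cysteine protease, and 5 of 6 were below 0, while Ctse was at 0.92. Ctsb, another lysosomal protease, had -0.01 on HS and 0.18 on LS. Of 7 measured Ras-family GTPases 0 passed in limma in any comparison, with medians of 0.00 on HS and -0.015 on LS, where Ralb had 0.30 and 0.34. The GTPases Rab10 and Rab2a had 0.00 and -0.15 on HS and -0.38 and -0.22 on LS. Of 4 measured genes of molybdenum and cytochrome b5 enzymes, listed beside Mtarc2, 0 passed in any comparison; Gphn, a molybdenum cofactor enzyme, had 0.23 on HS and Cyb5a, cytochrome b5, -0.04. Of 2 measured nuclear envelope genes, listed beside Tor1aip1, 0 passed in any comparison, and Lmnb1 (lamin B1) and Emd (emerin) had -0.21 and -0.02 on HS.

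Muscle filament genes were listed beside Tnnt2. On HS 8 of 10 tested were below 0 with a median of -0.26, 1 was higher (Actc1, cardiac actin, 0.30) and 0 lower. On LS their median was 0.08, with 0 passing. In SS 8 of 9 were above 0 on diet with a median of 0.30, and 1 was higher (Tagln, which binds actin in smooth muscle, 0.70). In strain 13 the median on diet was 0.03. Tagln had -0.42 on HS and 0.12 on LS in the strain comparisons, beside -0.48 and 0.01 of Tnnt2. Tpm3, a tropomyosin, had -0.34 on HS and -0.51 on LS.

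Acute phase genes were listed beside Apcs. On HS 7 of 9 were below 0 with a median of -0.21, 1 of them lower (C3, a complement component, -0.37), and on LS the median was -0.05. On diet the median was 0.15 in strain 13 and 0.17 in SS, where 1 was higher (Cp, ceruloplasmin, 0.34). Crp, the other pentraxin measured and next to Apcs among the measured genes, had 0.13 on HS in the probe with 3 values, against -0.46 of Apcs. A2m, alpha-2-macroglobulin, had the largest values of the list, -0.98 on HS and 0.595 in strain 13 on diet (n = 2 each) and 0.97 in SS on diet. Fgb, a fibrinogen chain, had -0.40 on HS, and Serpina3n, a serpin, 0.505 in strain 13 on diet and 0.455 in SS, with none of these past the threshold. Of 2 measured liver markers 0 passed in any comparison, and F2 (prothrombin) and Ttr (transthyretin) had -0.24 and 0.06 on HS. Leukocyte markers were listed beside Cd48. On HS 1 of 4 was lower (Lyz2, lysozyme, -1.51), with a median of -0.11 and Cd48 at 0.08, and on LS 0 of 3 passed. Thy1 had 0.19 on HS and 0.275 on LS.

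Markers of nephron segments stood on opposite sides of 0 in the strain comparisons. The thick limb and collecting duct list had 9 of 9 genes above 0 on HS (median 0.25, 5 higher) and 8 of 9 on LS (median 0.11), among them Fxyd4, a sodium pump regulator (0.495 on HS and 0.315 on LS), and Aqp3, a water channel (0.35 and 0.23). The proximal tubule list had 15 of 16 below 0 on HS (median -0.41, 4 lower) and 16 of 17 below 0 on LS (median -0.30), among them Cyp2c23, an epoxygenase (-1.19 on HS and -0.89 on LS), and Gatm, an enzyme of creatine synthesis (-1.02 and -0.72). The mean of the proximal tubule list was -0.79, -0.11 and -0.44 in the 3 replicates on HS and -0.35, -0.17 and -0.48 on LS. On diet this list had 15 of 17 below 0 in strain 13 (median -0.34) and 14 of 17 in SS (median -0.12). The thick limb and collecting duct list had 5 of 9 below 0 on diet in strain 13 (median -0.0017) and 8 of 9 in SS (median -0.12). The part of these markers in the strain ratios of the 7 genes was not tested. In whole tissue, fewer cells of a type and less RNA per cell cannot be told apart. Of 4 measured blood markers 0 passed in any comparison, and Hba-a1 (alpha globin) and Alas2 (erythroid heme synthesis) had 0.21 and -0.10 on HS. Since a ratio holds no level, the labelled tissue could not be checked by the level of its markers.

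By Pearson correlation over the RNA pairs, which share arrays, RNAs and the comparisons that chose the genes, the probe most like Tnnt2 was Tsc22d1 (r = 0.99, 12 pairs), followed by Prkcb (0.98) and Galr2 (0.97). For Mtarc2 they were Plcb4 (0.94, 11 pairs), Bcat2 (0.93) and Cntnap1 (0.92). For Tor1aip1 they were Acsl1 (0.91), Aldh1a1 (0.90) and Got1 (0.90), and for Ralb Pcyt2 (0.93, 11 pairs), Mapk12 (0.91) and Umod (0.91). For Ctse they were Kdr (0.90), Bmp4 (0.89) and Ndufa5 (0.87), each over 10 pairs, and for Cd48 Serinc5 (0.93), Atp1b3 (0.87) and Ackr3 (0.85). The remaining values are over 12 pairs. None of the 18 probes is on chromosome 13, and Apcs had values in 9 pairs, too few for this measure.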

How the data were processed

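Rat kidney RNA was hybridised to 24 two-colour arrays in 4 comparisons of 3 replicates. The deposited values are log ratios made by the authors, 1 column per array, with the base, background correction, spot filter and normalization not given in the sources used here; every array had a mean within 0.0049 of 0. The design had assumed log2 values, and since the files do not give the base, no fold is stated. Forward and dye-swap arrays of a replicate were averaged into 12 RNA pairs. limma 3.58.1 in R 4.3.3 (lmFit, eBayes) fitted the 4 group means to all probes together. Each mean was tested against 0 (two-sided) where at least 2 of 3 replicates had a value, with Benjamini-Hochberg adjustment at 0.05. The procedure was tested on simulated data.

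Probes were named through the platform table updated by RefSeq (GRCr8): 1311 of 1561 valued probes took 1 updated symbol, 223 had no symbol, 22 had several and 5 kept the platform's. The genes and lists were chosen with earlier results of these data known. Named beside them are Atp1b1, Kmo, the genes nearest the HS threshold, the 3 largest means of the remaining chromosome 13 genes on LS and in strain 13, the 3 probes most like each member with values in at least 10 pairs, and the 2 genes per list whose signed mean over the comparisons was largest in size, which passes over genes of opposite signs. A2m, Crp, Csrp1, Lamc1, Dbi, Actc1, C3 and Cp were named after their values were seen. One strain 13 diet array without a replicate number was taken as replicate 1. Same-numbered deviations of different comparisons correlated at -0.665 to 0.43. The numbers were not taken to pair samples in the main fit, although SS RNA is shared by name in replicate 3. On HS it is shared by the strain and SS diet comparisons, and on LS likewise. Same-numbered deviations of the strain comparison on LS and the SS diet comparison correlated at -0.037, -0.252 and 0.4. The diet comparisons deviated together (0.154 to 0.25). The strain comparison on HS and the SS diet comparison deviated oppositely in all 3 replicates (-0.665, -0.593 and -0.29). SS RNA on HS is the lower term of the first ratio and the upper term of the second. Whether other replicates also share RNA was not tested. Alternatives were a replicate block, other scaling, each group alone, complete probes, no filter, 1 orientation, and leaving out arrays or replicates; dye orientation as a term was chosen after seeing the data.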

Additional observations from a re-analysis of the deposited data

Results flagged for a closer look

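Of 30 sets of arrays or replicates examined, 3 held a value apart from the rest of its set, and chance gives about 1 in 20. In the strain comparison on LS, 726 values stood on the replicate 1 forward array and 1099 on the next lowest. The same array had an SD over its probes of 0.474, with the next at 0.318. In the SS diet comparison, the Ralb value of the dye-swap array of replicate 2 was 0.24, and the nearest of its other arrays was -0.03.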

How the results depend on the processing

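The arrays number 2 per replicate and 3 replicates per comparison, which limits the precision, and the number of probes called moved widely. On HS 81 probes differed between strains; the count was 0 to 27 without a replicate, 40 with the replicate block, 13 with scaled arrays, 0 with its replicates fitted alone, 127 on forward and 411 on dye-swap arrays and 190 with an orientation term. On LS 0 differed, with 0 to 1 without a replicate, 0 with the replicate block, 23 scaled, 35 over complete probes, 70 forward, 51 dye-swap and 63 with the term. In strain 13 on diet 0 differed, with 0 to 1 without a replicate, 0 with the replicate block, 15 forward, 3 dye-swap and 7 with the term. In SS on diet 37 differed, with 0 to 134 without a replicate, 31 with the replicate block, 0 alone, 58 complete, 118 forward, 62 dye-swap, 60 without the array of conflicting title and 128 with the term. The block changed no call of a member on LS or in strain 13. The chromosome 13 probes called on HS were 4 with the block, against 8. On LS and in strain 13 on diet, signs turned in 6 cases of a gene and comparison. On LS Tor1aip1, at 0.17, was -0.04 on forward arrays. Tnnt2 was -0.0072 scaled, -0.1367 on dye-swap arrays, -0.0817 without the sparsest array and -0.0075 to 0.0225 without a replicate. Cd48 was 0.0033 without the sparsest array and -0.17 to 0.06 without a replicate. In strain 13 on diet Tor1aip1 was -0.09 on forward arrays. Mtarc2 was -0.0009 scaled, -0.0133 on dye-swap arrays and -0.05 to 0.0475 without a replicate. Ralb was 0.1933 on forward arrays and -0.095 to 0.035 without a replicate, at 0.01 without replicate 1. Signs also turned in the other comparisons. On HS Cd48, at 0.0783, was -0.0133 on dye-swap arrays. In SS on diet Tor1aip1, at -0.0533, was 0.1233 on dye-swap arrays. Ralb, at -0.0217 in SS, was 0.06 on dye-swap arrays and 0.005 without replicate 3. Cd48, at 0.0067 in SS, was -0.16 on dye-swap arrays, -0.0156 scaled and -0.045 without replicate 3. Of 87 recomputed member values on LS 76 kept direction and call, 4 passed the threshold (all Ralb) and 7 turned, and of 76 in strain 13 on diet 69 kept them and 7 turned. The causes were not tested.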
